A study of Mus musculus with 8 samples.

Results

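The nuclear-encoded respiratory chain and ATP synthase were followed in mouse bone marrow-derived macrophages (BMDMs) after knockdown of MAARS, a long non-coding RNA of macrophages. The members were the protein-coding genes of the count table whose GENCODE M21 symbol begins with Nduf, Uqcr, Atp5, Cox4, Cox5, Cox6, Cox7 or Cox8, together with Sdha, Sdhb, Sdhc, Sdhd, Cyc1 and Cycs. This rule found 95 genes among the 49315 of the table. They comprised 36 complex I subunits, 8 complex I assembly factors (the Ndufaf genes, which build the complex without staying in it), 4 subunits of complex II, 10 genes of complex III and cytochrome c, 20 of complex IV and 17 of the ATP synthase. Ndufa4 carries a complex I name but encodes a subunit of complex IV and was placed there.

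The BMDMs were primary cells that had been grown out of C57BL/6 bone marrow under macrophage colony-stimulating factor. Transfection was done with a negative control gapmeR or with one against MAARS, each given as 25 nM in the labels. A gapmeR is a short antisense oligonucleotide whose target RNA is cut by RNase H. No allele was changed, no further stimulus is named for these libraries, and the reagent lowers MAARS without removing it. Ribodepleted total RNA was sequenced from 4 control gapmeR libraries (replicates 2, 5, 6 and 7) and 4 MAARS gapmeR libraries (replicates 9, 11, 13 and 15). The sources used here do not say whether the libraries of a group came from separate animals or cultures, so p-values measure the spread between libraries, which may be technical.

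The libraries held between 19287279 and 24541205 counts on genes, and each MAARS gapmeR library held more counts than each control library. MAARS (Gm14461, ENSMUSG00000054510) averaged 13.1 ± 1.36 CPM in the control libraries and 6.82 ± 0.844 CPM after its knockdown (SD, n = 4 each), lower by 48.1%. CPM here is a count scaled to the same library total in every library, after TMM normalization. For the comparison, edgeR's quasi-likelihood test was run over the 13051 genes that passed its filter on low counts, with Benjamini-Hochberg adjustment over all of them, and a gene was called at an adjusted p under 0.05. All 9 macrophage markers found in the table passed the filter, with 5 called higher (Cd14, Lyz2, Csf1r, Mertk and Itgam) and 3 lower (Fcgr1 and Cd68 among them), at log2 fold changes from -2.09 to 0.74. Their summed level was 14304 to 17540 CPM with control gapmeR and 17310 to 20531 CPM with MAARS gapmeR, so the sum rose while 3 of the markers fell. The 10 stromal, endothelial and muscle markers summed to 474.4 to 1062 CPM and 724.7 to 1238 CPM, with 8 tested and 1 called, lower (0 to 3 higher and 1 to 3 lower over the alternatives). The 10 neutrophil and granulocyte precursor markers summed to 102.7 to 303.0 CPM and 106.9 to 169.2 CPM, with 8 tested and 0 called by edgeR (0 by DESeq2, and 1 at an unadjusted p under 0.05). All 8 had a negative log2 fold change, with a median of -0.48, and 4 markers of the list were called lower with 1 surrogate variable, 4 without the filter (10 tested) and 4 without control replicate 5. Markers of lymphocytes (10 genes, Cd3g at 0 in every library), dendritic cells (6 genes) and erythroid, mast cells and megakaryocytes (9 genes) had 1 gene each past the filter. Of these only Cd4 was called, at 65.8 to 85.5 CPM with control gapmeR and 40.5 to 51.3 CPM with MAARS gapmeR. The part of other cell types in the results below was not tested, and in bulk RNA fewer cells of a type and less RNA per cell cannot be told apart.

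The respiratory chain of the inner mitochondrial membrane takes electrons from NADH at complex I and from succinate at complex II, passes them by ubiquinone to complex III and by the soluble carrier cytochrome c to complex IV, and there reduces oxygen. Complexes I, III and IV pump protons, and the ATP synthase uses the returning protons to make ATP. Most subunits are encoded in the nucleus, and a small set of core subunits is encoded by the mitochondrial genome, so the nuclear and mitochondrial products have to be assembled together. In macrophages the chain is known as a point of control in inflammation, where electron flow through complexes I and II contributes to the release of reactive oxygen species. The transcription factors NRF1, the GA-binding protein of the ETS family and YY1 are known to bind the promoters of many of these genes.

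Promoter sequences are shown for 4 members whose transcripts changed and whose promoter held the NRF1 site, to set the same letters beside decreases and an increase. They were chosen after their values had been seen. Cycs encodes cytochrome c, the gene in whose promoter NRF1 binding was first studied. Ndufaf4 encodes a complex I assembly factor, Sdhb the iron-sulphur subunit of complex II, and Uqcr11 a small subunit of complex III. Cycs, Ndufaf4 and Sdhb fell and Uqcr11 rose. The windows are RefSeq sequences of build GRCm38.p6, from 250 bases before to 50 bases after the annotated start, written 5′ to 3′ on the strand of the gene. Capitals mark the NRF1 site GCATGCGC and the ETS site CCGGAAG, in either orientation.
Cycs, chr6:50566520-50566819, minus strand: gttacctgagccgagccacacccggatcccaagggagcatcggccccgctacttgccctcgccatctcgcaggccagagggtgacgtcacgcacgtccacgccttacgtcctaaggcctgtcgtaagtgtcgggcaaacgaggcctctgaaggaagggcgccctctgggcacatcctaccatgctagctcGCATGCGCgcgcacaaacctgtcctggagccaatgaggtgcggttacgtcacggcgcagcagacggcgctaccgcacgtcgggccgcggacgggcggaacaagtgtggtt
Ndufaf4, chr4:24897833-24898132, plus strand: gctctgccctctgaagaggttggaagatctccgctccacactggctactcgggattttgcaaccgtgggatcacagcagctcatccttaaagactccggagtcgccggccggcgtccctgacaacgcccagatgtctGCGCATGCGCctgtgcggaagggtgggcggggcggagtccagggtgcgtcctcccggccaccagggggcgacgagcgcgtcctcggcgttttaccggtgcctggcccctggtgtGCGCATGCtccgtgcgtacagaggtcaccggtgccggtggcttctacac
Sdhb, chr4:140961021-140961320, plus strand: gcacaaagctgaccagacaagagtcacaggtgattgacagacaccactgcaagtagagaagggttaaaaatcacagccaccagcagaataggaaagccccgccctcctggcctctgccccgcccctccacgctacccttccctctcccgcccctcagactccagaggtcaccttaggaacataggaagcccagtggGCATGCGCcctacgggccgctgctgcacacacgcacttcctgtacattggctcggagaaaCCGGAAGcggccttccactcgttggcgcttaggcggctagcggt
Uqcr11, chr10:80406772-80407071, minus strand: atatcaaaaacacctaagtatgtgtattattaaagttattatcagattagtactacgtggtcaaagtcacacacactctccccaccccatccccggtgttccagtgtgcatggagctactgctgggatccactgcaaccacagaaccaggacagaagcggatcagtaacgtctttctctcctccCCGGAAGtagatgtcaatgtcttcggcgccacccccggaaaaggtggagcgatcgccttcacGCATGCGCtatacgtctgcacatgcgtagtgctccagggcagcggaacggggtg

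The Cycs window held 1 NRF1 site, 60 bases before the start. The Ndufaf4 window held a palindromic pair of overlapping NRF1 sites beginning 113 bases before the start, and another beginning 2 bases into the transcript. Sdhb carried an NRF1 site 54 bases before the start and an ETS site at base 7 after it. Uqcr11 carried an ETS site 66 bases before and an NRF1 site 4 bases before the start. The NRF1 site was thus present beside transcripts that fell and beside one that rose.

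RefSeq promoter windows were found for 75 of the 95 members (80 windows, since some genes have more than 1 start). The NRF1 site (GCATGCGC or GCGCATGC, the shorter unit of the factor's palindromic motif) was present in 16.2% of the member windows, against 2.71% of all 32851 windows and 3.52% of those of protein-coding genes. The ETS site (CCGGAAG or CTTCCGG) was present in 22.5% of the member windows, 8.86% of all windows and 11.6% of those of protein-coding genes. For the YY1 site (AAGATGGC or GCCATCTT) these shares were 12.5%, 2.75% and 3.05%. The 3 motifs were searched on both strands, and none contains another. Of the 13 members with an NRF1 site, 6 were called lower (Cycs, Ndufa8, Ndufa11, Ndufaf4, Ndufaf5 and Sdhb) and 1 higher (Uqcr11), with a median log2 fold change of -0.08. The 59 tested members with a window but without this site had 11 called lower and 7 higher, with a median of -0.01. Among the 18 members with an ETS site 4 were lower and 1 was higher, and among the 10 with a YY1 site 2 were lower (Ndufaf8 and Ndufs7) and 1 was higher (Ndufb8). A match describes the letters in the window and does not show binding.

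Most members changed little after MAARS knockdown. Of the 95 members, 89 passed the filter, and 10 of these were called higher and 22 lower, with 57 not called. Among all genes tested the background was 21.3% called higher and 24.0% called lower. The members' shares were 11.2% and 24.7%, so the share called lower was near the background and the share called higher was below it. The median log2 fold change of the tested members was -0.02, beside 0.01 over all genes tested, and 67 of the 89 members lay within 0.2 of 0 on the log2 scale (75.3%, against 45.4% of all genes tested). Only 10 members were called with a log2 fold change of at least 0.3 in either direction, which is 11.2% of those tested against a background of 29.3%.

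The balance of higher and lower calls depended on the scaling. With upper-quartile factors, which moved the median of all genes from 0.01 to 0.07, 27 members were called higher and 12 lower and the members' median turned to 0.04. With offsets for the length and GC content of genes 24 were higher and 15 lower, and the median was 0.02. Each of the 32 called members kept its direction in each of the 17 alternative fits, including the 8 that left out 1 library. A call in every alternative was kept by 18 of them: Ndufa12, Ndufs3, Ndufa8, Ndufs7, Ndufaf3, Ndufaf4, Ndufaf6, Sdhb, Cycs, Cyc1, Cox5a and Atp5g1, which were lower, and Ndufa1, Ndufb11, Uqcr11, Ndufa4, Cox7a2l and Cox7a1, which were higher.

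The summed level of all members was 7864, 8097, 7695 and 7498 CPM in control replicates 2, 5, 6 and 7 and 7759, 7739, 7757 and 7747 CPM in MAARS gapmeR replicates 9, 11, 13 and 15. The MAARS gapmeR libraries lay inside the range of the control libraries, with a mean 0.488% lower. The 4 control libraries differed more among themselves than the group means did. By complex the mean sums were 0.971% lower for complex I, 15.04% lower for the Ndufaf assembly factors, 5.33% lower for complex II, 3.69% lower for complex III and cytochrome c, 3.76% higher for complex IV and 0.551% higher for the ATP synthase. The sums of the assembly factors, of complex II and of complex III with cytochrome c did not overlap between the groups, and the other 3 sums did. The sums were taken with TMM factors only, and whether they stay apart under another scaling was not tested. With upper-quartile factors the median log2 fold change moved from -0.02 to 0.04 for complex III and cytochrome c. It moved from -0.08 to -0.01 for complex II and from -0.32 to -0.25 for the assembly factors.

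**Figure D1:**
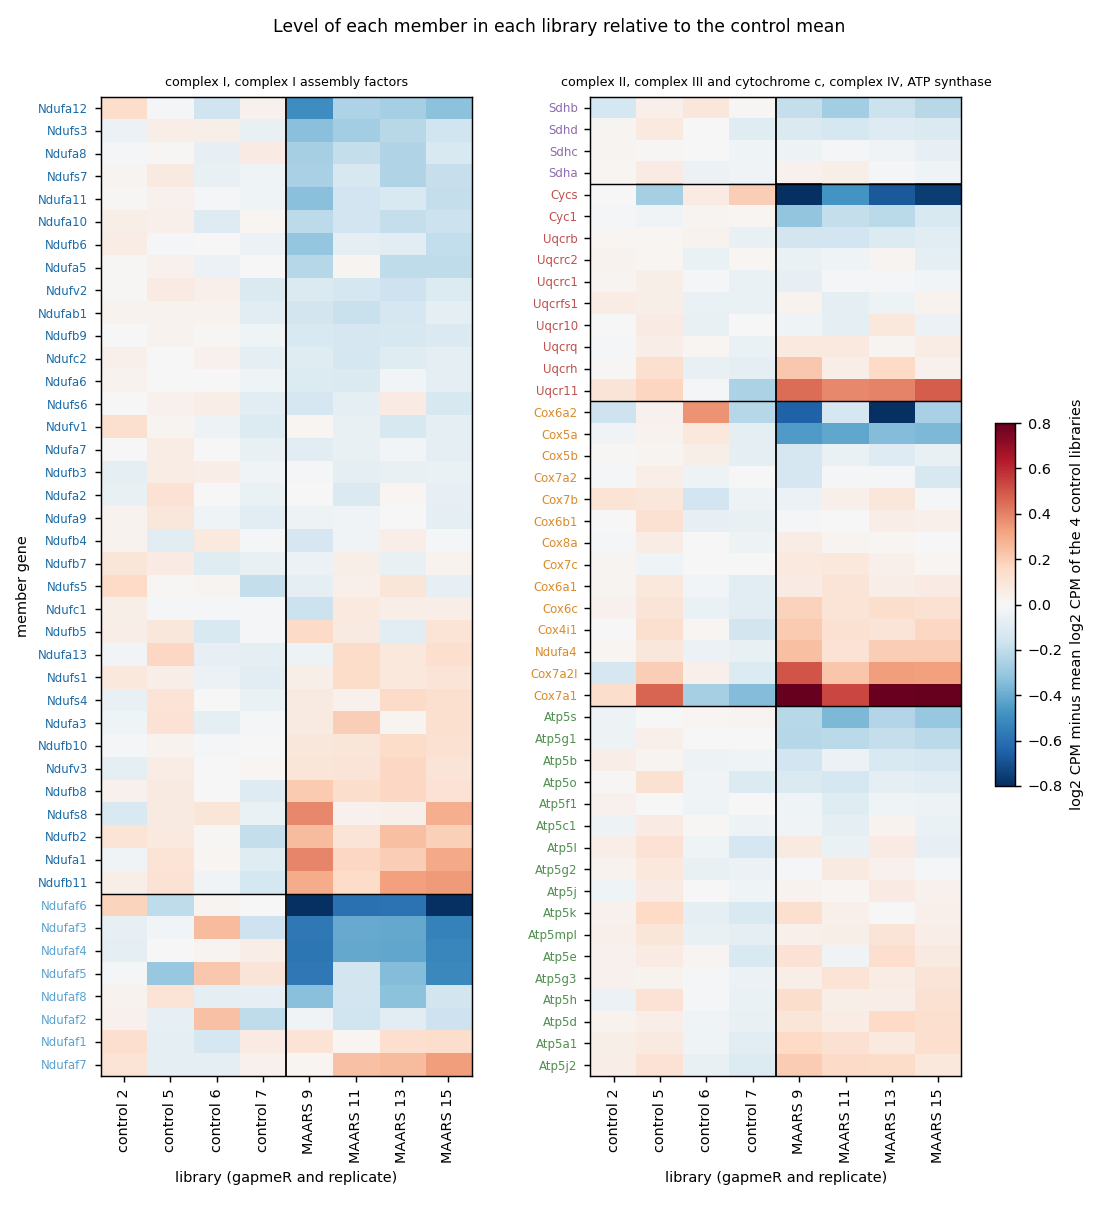
Heat map of 88 of the 89 members tested (rows, coloured by complex) in the 8 libraries (columns): log2 CPM minus the mean log2 CPM of the 4 control libraries, with the colour scale ending at 0.8 in both directions. Most rows stay pale in all libraries, while Cycs, Ndufaf6 and Cox5a are lower and Uqcr11, Cox7a2l and Cox7a1 higher in all 4 MAARS gapmeR libraries, a direction that was kept under each scaling tried.

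Groups of libraries that did not overlap were counted as a second description. The 4 MAARS gapmeR libraries lay wholly above the 4 control libraries for 14 of the 89 members (15.7%) and wholly below them for 22 (24.7%), where the background over all genes tested was 19.3% and 22.8%. The replicates of members were close to each other, with a median SE of 0.0516 on the log2 scale against 0.0839 for all genes tested, and the members had a median level of 63.9 CPM against 23.7 CPM.

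Complex I is the entry point for NADH. Of its 36 subunits, all tested, 5 were called higher and 9 lower, and the median log2 fold change was -0.04. That is 13.9% higher and 25% lower, beside 21.3% and 24.0% of all genes tested. The 7 nuclear-encoded core subunits bind the flavin, the iron-sulphur clusters and ubiquinone. Of these, Ndufs3, Ndufs7 and Ndufv2 were called lower, 1 was called higher and 3 were not called. The shares were 42.9% lower and 14.3% higher, beside 24.0% and 21.3% of all genes tested.

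Ndufa12, an accessory subunit of the matrix arm, had the largest decrease among the called complex I subunits (chromosome 10, 94198720 to 94221443 in GRCm38, plus strand). It stood at 58.1, 52.4, 47.2 and 53.9 CPM with control gapmeR and at 37.4, 44.5, 43.8 and 42.1 CPM with MAARS gapmeR. The groups did not overlap, and the log2 fold change was -0.33 (standard error, SE, 0.0734, edgeR adjusted p = 0.00341). Ndufs3, a core subunit (chromosome 2, 90894634 to 90904827, minus strand), was at 64.2, 68.7, 68.6 and 63.7 CPM and then at 52.5, 54.7, 56.7 and 59.4 CPM. It fell by 0.25 on the log2 scale (SE 0.0526, edgeR adjusted p = 0.00279), and 4.04% of its exon length overlaps an exon of Kbtbd4 on the opposite strand. Ndufa8, an accessory subunit on the intermembrane-space side, fell from 69.3 ± 2.62 to 60.1 ± 2.69 CPM (SD, n = 4 each), again with no overlap. Ndufs7, the core subunit with the last iron-sulphur cluster before ubiquinone, fell from 50.3 ± 2.12 to 43.7 ± 1.82 CPM, and Ndufa10 and Ndufa11 fell by 0.18 and 0.20 on the log2 scale. Ndufv2, Ndufab1 and Ndufb9 fell by 0.13 each, and the libraries of Ndufv2 and Ndufab1 overlapped between the groups. Of the exon length of Ndufb9, 19.5% overlaps the gene Gm49356 on the same strand.

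Fewer subunits of complex I were called higher than lower in the main fit. This balance depended on the scaling. With upper-quartile factors 11 were higher and 4 lower, and with length and GC offsets 10 were higher and 7 lower. Ndufb11 (chromosome X, 20615326 to 20617619, minus strand), a membrane-arm subunit, was at 70.7, 74.2, 67.2 and 62.1 CPM with control gapmeR and at 83.9, 75.6, 85.9 and 86.6 CPM with MAARS gapmeR. Every MAARS gapmeR library exceeded every control library, and the log2 fold change was 0.28 (SE 0.0638, edgeR adjusted p = 0.00458), with 12.9% of the exonic bases shared with Rbm10 on the opposite strand. Ndufa1 (chromosome X, 37187588 to 37191163, minus strand), another membrane-arm subunit, rose from 31.5 ± 1.88 to 37.8 ± 2.72 CPM (SD, n = 4 each), by 0.26 on the log2 scale. Ndufb8 and Ndufb10, also of the membrane arm, rose by 0.16 and 0.11. Of the subunits with high levels, Ndufs1 was not called at 91.8 ± 5.17 and 97.96 ± 2.76 CPM and Ndufa10 was lower at 92.7 ± 4.34 and 81.7 ± 1.31 CPM. The calls of Ndufb10 (edgeR adjusted p = 0.0462) and Ndufab1 (edgeR adjusted p = 0.0439) were close to the threshold, and Ndufv3 and Ndufb6 were just outside it at 0.052 and 0.0525.

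**Figure D2:**
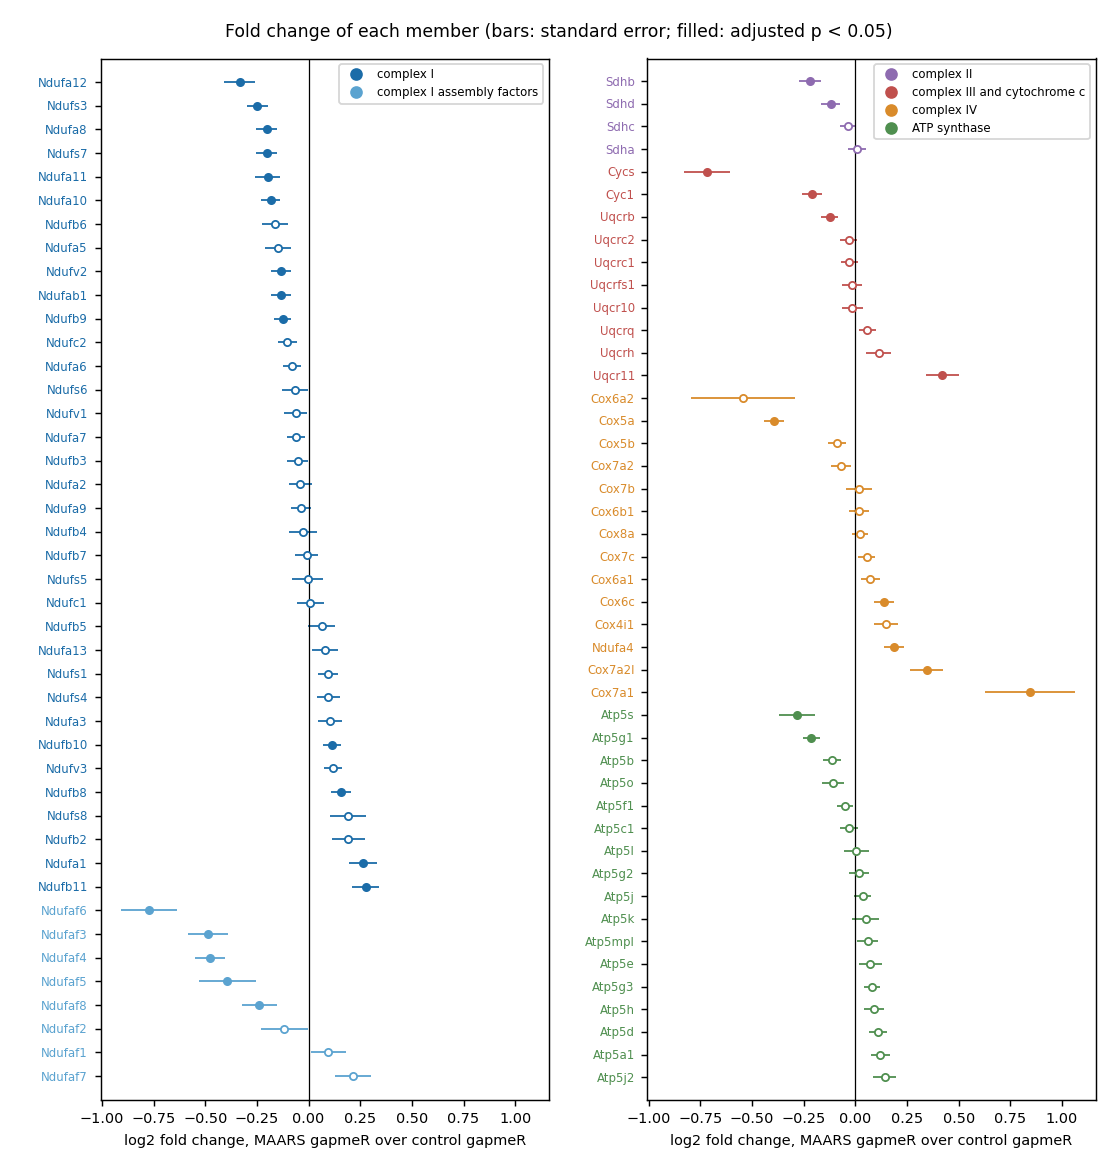
Log2 fold change of 88 of the 89 tested members, MAARS gapmeR over control gapmeR, with the SE as bars, colour for the complex and filled points for an adjusted p under 0.05. The points of complex I, complex II and the ATP synthase run from -0.33 to 0.28, and Cycs at -0.72, Ndufaf6 at -0.77 and Cox7a1 at 0.85 lie farther out than the other called members.

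The complex I assembly factors held some of the larger decreases. Of the 8 Ndufaf genes 5 were called lower and 0 higher by edgeR (1 was higher at an unadjusted p under 0.05, 1 with upper-quartile factors and with length and GC offsets, and 0 with DESeq2). Their median log2 fold change was -0.32, and it stayed between -0.38 and -0.25 over the alternatives. Their shares called by edgeR were 62.5% lower and 0% higher, beside 24.0% and 21.3% of all genes tested. Ndufaf6 (chromosome 4, 11051045 to 11076205, minus strand), needed for an early step of complex I assembly, was at 7.99, 6.11, 7.14 and 7.07 CPM and then at 3.69, 4.66, 4.69 and 3.51 CPM. The groups were well apart, and the log2 fold change was -0.77 (SE 0.136, edgeR adjusted p = 0.000833), a decrease by 41.5%. Ndufaf4 (chromosome 4, 24898083 to 24905001, plus strand), whose promoter is printed above, was at 15.6, 16.5, 16.7 and 17.0 CPM and then at 11.02, 12.4, 12.3 and 11.4 CPM. It fell by 0.48 (SE 0.0729, edgeR adjusted p = 0.000325), again without overlap.

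Ndufaf3, which acts together with Ndufaf4 in the early assembly of the membrane-bound part, fell from 17.3 ± 2.24 to 12.3 ± 0.743 CPM (SD, n = 4 each) or by 28.5%. Ndufaf5, which modifies a core subunit, fell by 0.39 with overlapping libraries, and Ndufaf8 fell by 0.24. Ndufaf1 (0.10), Ndufaf2 (-0.12) and Ndufaf7 (0.21) were not called, and 65.6% of the exon length of Ndufaf2 overlaps a gene on the opposite strand. The Ndufaf genes had lower counts than the subunits, with a median of 11.6 CPM against 50.2 CPM for complex I. With upper-quartile factors or with length and GC offsets 3 of the 5 calls were made.

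Complex II carries electrons from succinate and is the only complex of the chain with no mitochondrially encoded subunit. Sdhb (chromosome 4, 140961203 to 140979193, plus strand), its iron-sulphur subunit, was at 208.7, 236.9, 245.1 and 232.2 CPM with control gapmeR and at 201.8, 190.1, 204.0 and 197.4 CPM with MAARS gapmeR. The control replicate nearest to the MAARS gapmeR group was still above it, and the log2 fold change was -0.22 (SE 0.0535, edgeR adjusted p = 0.00641). Sdhd, a membrane anchor, fell by 0.12 (edgeR adjusted p = 0.0487), a call lost in 12 of the 17 alternatives.

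Sdha, the flavoprotein that oxidises succinate, was at 328.1 ± 11.2 and 330.2 ± 8.71 CPM (SD, n = 4 each), and Sdhc, the other anchor, at 142.9 ± 2.55 and 139.5 ± 2.20 CPM, neither of them called. The iron-sulphur subunit thus differed from the flavoprotein it binds in its call, a difference that was not itself tested.

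Complex III and cytochrome c held members that moved in opposite directions. Cycs (chromosome 6, 50562563 to 50566538, minus strand), which encodes cytochrome c, the carrier to complex IV that also triggers caspase activation when it leaves the mitochondrion, was at 69.7, 57.8, 72.8 and 79.8 CPM with control gapmeR. With MAARS gapmeR it was at 35.2, 49.9, 43.7 and 41.2 CPM. All 4 libraries lay below the lowest control library, and the log2 fold change was -0.72 (SE 0.111, edgeR adjusted p = 0.000346), a decrease by 39.3%. Cyc1, cytochrome c1, which hands the electron to cytochrome c, fell from 69.9 ± 1.16 to 60.4 ± 3.35 CPM (SD, n = 4 each), by 0.21 on the log2 scale. Uqcrb, a small subunit near the quinone site, fell by 0.13.

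Uqcr11 (chromosome 10, 80402997 to 80406830, minus strand), another small subunit of the complex, moved the other way. It was at 41.2, 43.2, 37.9 and 32.2 CPM with control gapmeR and at 52.3, 50.1, 50.5 and 53.8 CPM with MAARS gapmeR. The groups did not overlap, and the log2 fold change was 0.42 (SE 0.0799, edgeR adjusted p = 0.0014), an increase by 33.8%. The core proteins Uqcrc1 and Uqcrc2, the Rieske iron-sulphur protein Uqcrfs1 and the small subunits Uqcr10, Uqcrq and Uqcrh were not called, with log2 fold changes from -0.03 to 0.11. Uqcrc1 stood at 164.1 ± 4.94 and 160.8 ± 2.86 CPM, Uqcrc2 at 99.2 ± 2.47 and 97.0 ± 2.79 CPM, and Uqcrq at 91.4 ± 2.77 and 95.1 ± 1.80 CPM (SD, n = 4 each).

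**Figure D3:**
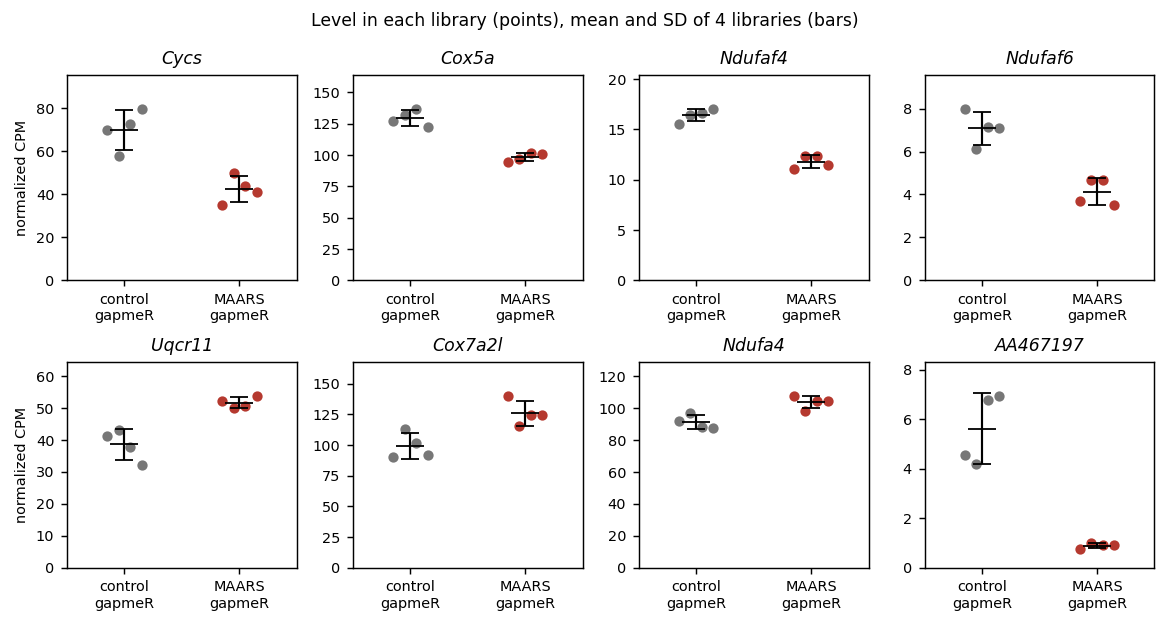
Normalized CPM in each library for 7 members and for AA467197, with the 4 control gapmeR libraries in grey and the 4 MAARS gapmeR libraries in red, and the mean and SD as bars. The genes of the 8 panels were picked among the called ones after their values had been seen, and in each the 2 groups do not overlap. Cycs, Cox5a, Ndufaf4, Ndufaf6 and AA467197 are lower and Uqcr11, Cox7a2l and Ndufa4 higher with MAARS gapmeR under each scaling tried.

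Complex IV had 14 of its 20 genes tested, with 4 called higher and 1 lower. The shares were 28.6% higher and 7.14% lower, beside 21.3% and 24.0% of all genes tested. Cox5a (chromosome 9, 57521274 to 57532426, plus strand), a subunit on the matrix side, was at 127.0, 131.8, 136.9 and 122.3 CPM with control gapmeR. With MAARS gapmeR it was at 94.4, 97.2, 101.6 and 101.1 CPM. The groups were separated by more than the range of either, and the log2 fold change was -0.39 (SE 0.0479, edgeR adjusted p = 6.9e-05), the smallest p among the members. Of its exon length 12.8% overlaps the gene Gm26631 on the opposite strand. Cox5b, the other matrix-side subunit of that name, was not called at a log2 fold change of -0.09.

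Cox7a2l (chromosome 17, 83501918 to 83517330, minus strand), described as a factor in joining complexes III and IV into supercomplexes, was at 90.1, 113.5, 101.7 and 91.8 CPM and then at 139.9, 115.5, 124.7 and 124.2 CPM. The highest control library and the lowest MAARS gapmeR library were close to each other without crossing, and the log2 fold change was 0.34 (SE 0.0787, edgeR adjusted p = 0.00431). Supercomplexes were not measured in these data, and the action of the protein in these cells was not tested. Cox7a1, the isoform known from heart and skeletal muscle, was near the lower end of detection, with 35, 44, 25 and 26 counts in the control libraries and 74, 59, 61 and 78 in the MAARS gapmeR libraries. The counts did not overlap, and the log2 fold change was 0.85 (SE 0.218, edgeR adjusted p = 0.00839). Cox6c rose by 0.14. Cox4i1, the subunit that is assembled with the catalytic core, was at 295.0 ± 22.8 and 326.8 ± 11.1 CPM (SD, n = 4 each) and was just outside the threshold (edgeR adjusted p = 0.056). Cox8a, Cox6a1, Cox6b1 and Cox7b had log2 fold changes between 0.02 and 0.07 and were not called.

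Ndufa4 (chromosome 6, 11900292 to 11907497, minus strand) is a subunit of complex IV that can be exchanged for the product of AA467197 (also called Nmes1) in inflammatory states. It was at 91.9, 97.1, 88.2 and 87.5 CPM with control gapmeR and at 107.7, 98.5, 104.4 and 104.6 CPM with MAARS gapmeR. It rose by a log2 fold change of 0.19 (SE 0.0484, edgeR adjusted p = 0.00866) with no overlap. AA467197 was at 4.56, 4.18, 6.76 and 6.92 CPM and then at 0.757, 0.995, 0.919 and 0.91 CPM. Its decrease was the larger of this pair, with a log2 fold change of -2.63 (SE 0.221, edgeR adjusted p = 7.3e-06). For each 100 CPM of Ndufa4 there were 4.96, 4.30, 7.66 and 7.92 CPM of AA467197 with control gapmeR and 0.703, 1.01, 0.88 and 0.87 CPM with MAARS gapmeR. These ratios are not corrected for transcript length and compare libraries, not the proteins.

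Isoforms of the same subunit were compared as shares of counts per kilobase of exon within each group of isoforms, with a two-sided exact permutation test over 4 against 4 libraries (smallest possible p = 0.0286) and adjustment over 11 shares. In the Cox7a group, Cox7a2 made up 53.9%, 49.2%, 50.8% and 53.9% with control gapmeR and 40.6%, 47.7%, 45.6% and 43.4% with MAARS gapmeR. Its share was lower in every MAARS gapmeR library, by 7.66 percentage points on average (exact permutation p = 0.0286, adjusted p = 0.0393). Cox7a2 itself was not called, at 71.5 ± 1.93 and 68.1 ± 3.28 CPM with overlapping libraries (log2 fold change -0.07, edgeR adjusted p = 0.259). A share also moves with the other genes of its group, of which Cox7a2l and Cox7a1 were called higher. The share of Cox7a2l was higher by 6.33 points, from 45.9% ± 2.19 to 52.3% ± 2.56, and that of Cox7a1 by 1.32 points, from 2.12% ± 0.466 to 3.44% ± 0.558 (SD, n = 4 each). Cox7a2l is a related protein and not a plain alternative to Cox7a2, so this share describes the gene group and not the composition of complex IV.

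Cox6a2, the muscle isoform of Cox6a, made up 2.84% ± 0.531 of its group with control gapmeR and 1.85% ± 0.624 with MAARS gapmeR (SD, n = 4 each), with no overlap of the libraries as shares and an overlap as CPM. Cox6a2 itself was not called (log2 fold change -0.54, SE 0.251), and 10.3% of its exon length overlaps Itgad on the opposite strand. The lung isoform Cox4i2 had 3, 2, 0 and 0 counts in the control libraries and 9, 8, 7 and 7 in the MAARS gapmeR libraries, and the testis isoform Cox6b2 had 3, 2, 2 and 0 and then 5, 6, 6 and 7 counts. Both shares were higher with MAARS gapmeR without overlap, yet they reached at most 0.245% and 0.146% of their groups and rest on 36 and 31 counts in all. The filter removed both genes, along with Cox7b2, Cox8b, Cox8c and Ndufa4l2, of which Cox7b2 and Cox8c had no count in any library.

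The c ring of the ATP synthase is built from identical subunits encoded by 3 genes. The share of Atp5g1 was 9.4%, 9.75%, 10.0% and 10.1% with control gapmeR and 8.38%, 8.10%, 8.46% and 8.32% with MAARS gapmeR, lower by 1.52 points without overlap. The share of Atp5g3 was higher by 1.81 points, from 48.9% ± 0.652 to 50.7% ± 0.652 (SD, n = 4 each). Atp5g3 itself was not called, at 133.3 ± 3.47 and 141.0 ± 2.78 CPM without overlap (log2 fold change 0.08, edgeR adjusted p = 0.119). The share of Atp5g2 overlapped between the groups at 41.3% ± 0.727 and 41.0% ± 0.648 (exact permutation p = 0.6). Of the 11 shares, 8 had the smallest possible p and an adjusted p of 0.0393. The shares of a group are not independent, and each adjusted p depends on how many of the 11 shares have the smallest p. No share was thus called on its own values alone, and calls are lost together. All 8 missed the threshold when any 1 control library or MAARS gapmeR replicate 15 was left out (adjusted exact permutation p from 0.0524 to 0.157), with the direction kept. The length used matters for these genes, because the annotated transcripts differ in length, and per kilobase of the principal transcript the libraries of Atp5g3 overlapped and its adjusted p was 0.0786. That setting was added after the data had been seen.

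**Figure D4:**
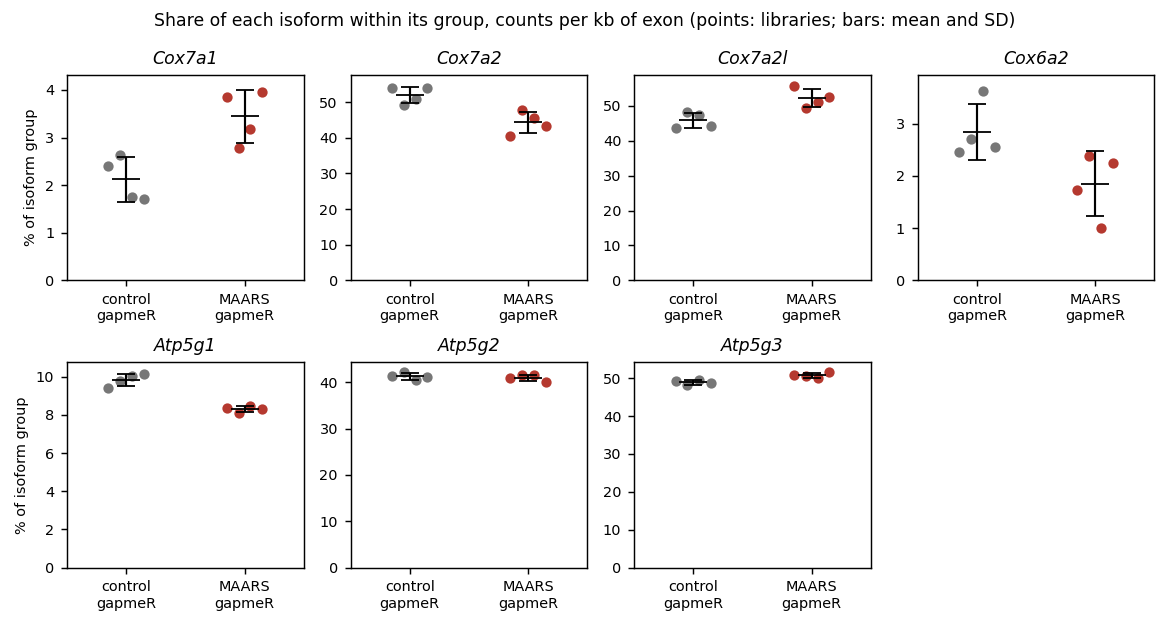
Share of each isoform within its isoform group, in percent of counts per kilobase of exon, for each control gapmeR library (grey) and each MAARS gapmeR library (red), with the mean and SD of 4 libraries as bars. The shares of Cox7a2, Cox6a2 and Atp5g1 are lower and those of Cox7a1, Cox7a2l and Atp5g3 higher in every MAARS gapmeR library, and the points of Atp5g2 overlap.

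The ATP synthase makes ATP from the proton gradient with a catalytic head and a membrane rotor. Of its 17 genes 0 were called higher and 2 lower by edgeR. That is 0% and 11.8% of those tested, beside 21.3% and 24.0% of all genes tested. At an unadjusted p under 0.05, 3 were higher and 3 lower. DESeq2 called 2 higher and 3 lower, and upper-quartile factors gave 5 higher and 1 lower. Atp5g1 (chromosome 11, 96068852 to 96075670, minus strand) was at 58.6, 62.0, 60.3 and 60.5 CPM with control gapmeR and at 51.4, 52.0, 52.9 and 52.0 CPM with MAARS gapmeR. Its 4 MAARS gapmeR libraries lay close together and below every control library, and the log2 fold change was -0.21 (SE 0.042, edgeR adjusted p = 0.00176). Atp5s, a factor associated with the enzyme, fell from 8.23 ± 0.167 to 6.78 ± 0.297 CPM (SD, n = 4 each), by 0.28 on the log2 scale.

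The catalytic head pointed in different directions without being called. Atp5b, the catalytic beta subunit, was at 716.8, 703.0, 671.2 and 676.4 CPM with control gapmeR and at 623.0, 669.0, 636.9 and 630.9 CPM with MAARS gapmeR (log2 fold change -0.11, edgeR adjusted p = 0.0607). Atp5a1, its alpha partner, was at 616.5, 625.7, 583.7 and 562.5 CPM and then at 665.2, 649.1, 629.7 and 653.6 CPM (log2 fold change 0.12, edgeR adjusted p = 0.0578). Neither gene overlapped between the groups, although the differences of 7.50% and 8.76% missed the threshold. Atp5a1 was called higher in 8 of the 17 alternatives and Atp5b lower in 2. Atp5f1, the b subunit of the stalk, was at 214.3 ± 4.36 and 207.1 ± 4.40 CPM (SD, n = 4 each). The F1 genes Atp5c1, Atp5d and Atp5e were not called, with log2 fold changes of -0.03, 0.11 and 0.07.

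Other gene lists of the same organelle are given for comparison. Assembly factors of the chain and of the ATP synthase outside the Nduf names had 46 genes tested, with 19 called lower and 3 higher and a median log2 fold change of -0.12. The shares were 41.3% lower and 6.52% higher, beside 24.0% and 21.3% of all genes tested. Coa5, a complex IV assembly factor, fell from 276.2 ± 22.7 to 174.9 ± 9.78 CPM, Foxred1, a complex I assembly factor, from 43.6 ± 2.94 to 31.4 ± 1.18 CPM, and Tmem126a from 30.9 ± 0.837 to 23.5 ± 0.267 CPM (SD, n = 4 each). The mitochondrial ribosomal proteins, which translate the mitochondrially encoded subunits, had 45 of 78 genes called lower and 2 higher (57.7% and 2.56%), a median of -0.19. Mrpl30, Mrpl2 and Mrpl32 fell by 0.51, 0.45 and 0.58. The medians of both lists stayed below 0 under all alternatives, from -0.15 to -0.05 for the assembly factors and from -0.21 to -0.13 for the ribosomal proteins.

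The mitochondrially encoded subunits went the other way. All 7 that passed the filter were higher (mt-Nd1, mt-Nd2, mt-Nd4, mt-Nd5, mt-Nd6, mt-Cytb and mt-Co1), with a median log2 fold change of 0.77. mt-Nd1, a core subunit of complex I, was at 590.5, 518.7, 384.1 and 428.3 CPM with control gapmeR and at 1037, 854.5, 860.4 and 1069 CPM with MAARS gapmeR (log2 fold change 0.99, with an SE of 0.126 and an edgeR adjusted p = 9.33e-05). mt-Cytb, the cytochrome b of complex III, rose by 0.98, and mt-Nd2 by 0.77. The groups did not overlap for any of the 7. The other 6 genes of this kind had at most 12 counts in a library, beside at least 2615 for the 7, so their counts cannot be read as levels. Nuclear genomes hold copies of mitochondrial sequence, how the counting treated reads with several matches is not given in the sources used here, and its part in these values was not tested. The summed level of the listed mitochondrially encoded genes was 4088 to 5431 CPM with control gapmeR and 6748 to 8485 CPM with MAARS gapmeR. The sums of the nuclear-encoded complexes described above overlapped between the groups or differed by up to 5.33%, and that of the Ndufaf assembly factors differed by 15.04%.

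**Figure D5:**
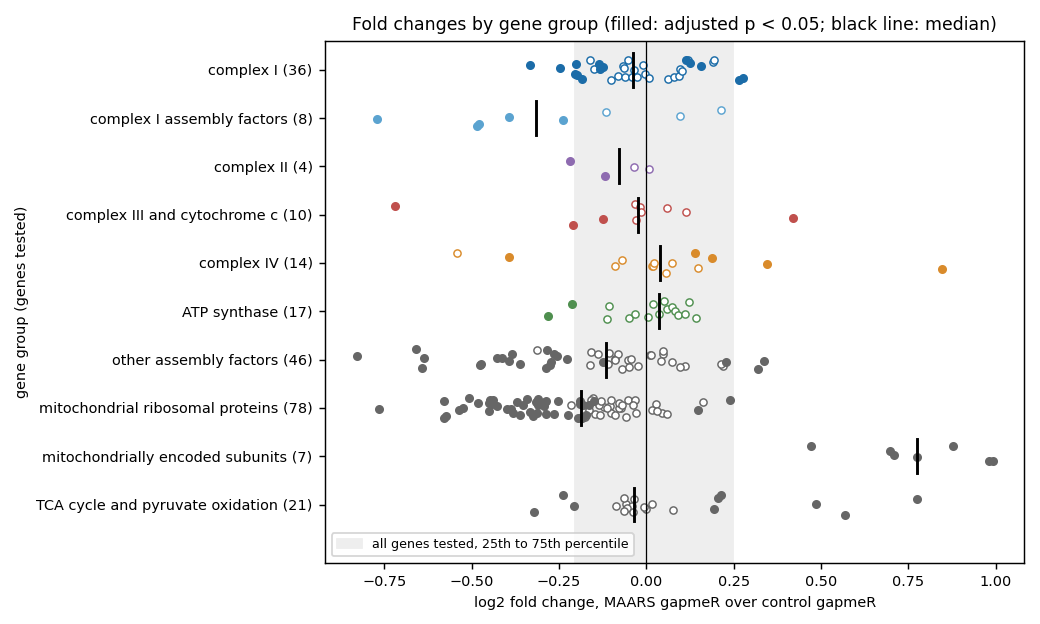
Log2 fold change of each tested gene, MAARS gapmeR over control gapmeR, in the 6 groups of members and in 4 other gene lists (grey), with filled points for an adjusted p under 0.05, a black line for the median and a band for the 25th to 75th percentile of all genes tested. The members of the complexes gather around 0, the assembly factors and the mitochondrial ribosomal proteins lie mostly to the left with medians from -0.32 to -0.12, and the 7 mitochondrially encoded subunits lie to the right, between 0.47 and 0.99.

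Enzymes that feed the chain did not follow one direction. Among 21 genes of the TCA cycle and pyruvate oxidation 6 were called higher and 3 lower (28.6% and 14.3%, beside 21.3% and 24.0% of all genes tested). Idh2, which makes NADPH in mitochondria, rose from 73.3 ± 7.70 to 108.8 ± 4.50 CPM, Suclg2 rose from 26.3 ± 2.26 to 36.7 ± 1.75 CPM, and Pdhx of the pyruvate dehydrogenase complex fell from 27.0 ± 0.75 to 21.6 ± 0.675 CPM (SD, n = 4 each). Among 25 genes of other electron entry, quinone synthesis and uncoupling 5 were higher and 7 lower (20% and 28%, near the same background). Etfa, which brings electrons from fatty acid oxidation, rose by 0.39, and Aifm2, a quinone reductase, and Slc25a5, an ATP/ADP carrier, fell by 0.49 and 0.22.

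Of the regulators of these genes, 17 were tested, 4 called higher and 4 lower. That is 23.5% in each direction, near the 21.3% higher and 24.0% lower of all genes tested. Gabpa, the DNA-binding subunit of the GA-binding protein, rose by 0.22 from 51.7 ± 1.23 to 60.1 ± 2.99 CPM, and its partner Gabpb2 rose by 0.28. Creb1 and Tfb2m, the latter a mitochondrial transcription factor, rose by 0.28 and 0.24, with libraries that overlapped. Pprc1 (a coactivator related to PGC-1), Esrra (the estrogen-related receptor alpha), Hif1a and Sirt1 fell by 0.40, 0.31, 0.28 and 0.19. Nrf1 was at 20.1 ± 0.614 and 22.2 ± 1.08 CPM (SD, n = 4 each) and was not called, nor were Yy1, Tfam, Gabpb1, Sirt3, Polrmt, Myc, Tfb1m and Ppargc1b. Ppargc1a was removed by the filter.

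Genes that link the chain to inflammation included larger changes. Besides AA467197, Acod1, whose product makes itaconate, an inhibitor of complex II, fell from 29.7, 33.8, 54.0 and 45.5 CPM to 1.23, 0.676, 2.07 and 0.91 CPM, a log2 fold change of -5.08. Sod2, the mitochondrial superoxide dismutase, fell by 0.48, and Higd1a, a small protein that binds complex IV, by 0.41. Of 6 genes tested in this list, 4 were lower and 1 (Ndufa4) was higher, and Cox4i1 was not called. The shares were 66.7% lower and 16.7% higher, beside 24.0% and 21.3% of all genes tested. The list was chosen with earlier results of these data known, so these shares describe the listed genes only. Nos2, Cox4i2 and Ndufa4l2 did not pass the filter.

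Reads shared between genes touch part of the members. Of the 95, 32 share exonic bases with another gene of the annotation and 11 have a near-identical transcript of another gene, 36 in all by either criterion. The near-identical copies had at most 99 counts each over the 8 libraries, beside 5470 or more for the member they resemble. Among the 54 tested members with neither feature, 6 were called higher and 15 lower. By length of the exons, the median log2 fold change of all genes tested was 0.01 under 1 kb, -0.03 from 1 to 2 kb, -0.03 from 2 to 4 kb and 0.03 over 4 kb, and that of the members -0.03, 0.01, -0.04 and -0.01 in the same classes.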

How the data were processed

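RNA-Seq counts of mouse BMDMs were used, 4 control gapmeR and 4 MAARS gapmeR libraries, grouped by the labels. Per the labels and the study's methods, the authors trimmed reads with Trimmomatic 0.36, aligned them with STAR 2.5.2b to mm10 (GRCm38) with Ensembl transcripts, and used featureCounts of Subread 1.5.2 to count reads in each gene. The deposited table holds these raw counts, without normalization, for 49315 genes. The strand setting and the treatment of reads with several matches are not given in the sources used here, so overlapping genes and near-identical copies stay uncertain.

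From these counts, R 4.3.3 with edgeR 4.0.16 gave TMM-normalized CPM, filterByExpr (minimum count 10, minimum total 15) kept 13051 genes, and glmQLFit with glmQLFTest compared the groups, with Benjamini-Hochberg adjustment over all genes tested. Each SE was taken as the size of the log2 fold change over the root of F. Totals of 19287279 to 24541205 counts per library set the precision, and within groups 2 libraries differed by a chi-square of 4.24 to 15.1 per gene, more than sampling noise gives. The fit was tested on simulated counts.

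GENCODE M21 (GRCm38) gave symbols, positions, lengths and overlaps, and held 99.47% of the gene identifiers. Near-identical copies were searched with BLAST 2.17.0 among the annotated transcripts at 95% identity, since no genome sequence was used here. Promoter windows are RefSeq sequences of GRCm38.p6. The members, gene lists and tests were chosen with earlier results of these data known. Genes were named by rule: in each group of members the 3 with the highest level and the 3 with the smallest p in each direction, the isoforms, the members the filter removed, every tested regulator and inflammation-linked gene, and 3 genes of each other list. Coa1, Dmac2l, Atp5if1 and Emr4 of the lists were not found under these symbols, and 1 member is counted but not reported by name here. Further genes named in counts of called genes or as neighbours of a threshold were chosen after their values had been seen.

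Alternatives were DESeq2 1.42.0, limma-voom (limma 3.58.1), edgeR with upper-quartile or RLE factors, no filter, a filter at a mean of 10 counts, length and GC offsets (loess span 0.3), counts thinned to the smallest total, 1 surrogate variable (sva 3.50.0), each library left out, other thresholds, members without shared reads, and plain counts for isoform shares. Shares per kilobase of principal transcript were added after the data had been seen.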

Additional observations from a re-analysis of the deposited data

Results flagged for a closer look

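Each value was compared with the other libraries of its group by Dixon's ratio at its 95% critical value, for 200 groups of libraries over the genes named and the summed levels of the members. 10 groups held a library that stood apart, which is 5% and the share that chance alone is set to give, about 1 in 20.

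Among the members, Uqcrc2 was at 95.6 CPM in control replicate 6, beside 100.1 to 101.0 CPM in the other 3 control libraries. Uqcrb was at 82.2 CPM in control replicate 7, beside 86.5 to 87.3 CPM. Atp5f1 was at 200.5 CPM in MAARS gapmeR replicate 11, beside 208.6 to 209.6 CPM. Cox4i2 was at 0.426 CPM in MAARS gapmeR replicate 9, beside 0.303 to 0.322 CPM, a difference of 1 or 2 counts.

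Outside the members, Sod2 was at 59.0 CPM in MAARS gapmeR replicate 11 (54.9 to 55.3 CPM in the others) and Tfam at 24.7 CPM in MAARS gapmeR replicate 15 (21.4 to 21.9 CPM). Mrpl2 was at 29.8 CPM in MAARS gapmeR replicate 9 (32.8 to 33.2 CPM) and Mrpl32 at 29.3 CPM in control replicate 7 (26.7 to 26.9 CPM). The dendritic cell marker Zbtb46 was at 1.08 CPM in control replicate 6 (0.41 to 0.509 CPM), and Itga2b, a megakaryocyte marker, was at 2.65 CPM in control replicate 7 (0.595 to 0.866 CPM). None of these libraries stood apart in the summed level of the members.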

How the results depend on the processing

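The number of members called higher was 10 and moved to 27 with upper-quartile factors, 24 with length and GC offsets, 6 without the members with shared reads, 6 at an adjusted p under 0.01 and 3 with a log2 fold change of at least 0.3, and lay between 6 and 13 when 1 library was left out. The number called lower was 22 and moved to 12 with upper-quartile factors, 13 at an adjusted p under 0.01 and 7 with a log2 fold change of at least 0.3, and lay between 16 and 21 with 1 library left out. It was 22 with counts thinned to the smallest total. The members' median turned from -0.02 to 0.045 with upper-quartile factors. No paired analysis was possible because the groups share no replicate numbers.

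By group, upper-quartile factors gave 11 higher and 4 lower in complex I, 1 higher and 3 lower among its assembly factors, 1 lower in complex II, 3 higher in complex III and cytochrome c, 7 higher in complex IV, and 5 higher and 1 lower in the ATP synthase. Length and GC offsets gave 10 higher in complex I, 1 higher and 3 lower among its assembly factors, 1 lower in complex II, 3 higher in complex III and cytochrome c, and 5 higher and 1 lower in the ATP synthase. Without the filter 2 were higher in complex I and 1 lower in both complex II and the ATP synthase. DESeq2 gave 1 lower in complex II and 2 higher in the ATP synthase, RLE factors 1 and 3, and limma-voom and 1 surrogate variable each 2 higher in the ATP synthase. With 1 library left out, complex I had 2 to 5 higher, its assembly factors 0 or 1 higher and 3 to 5 lower, complex II 1 or 2 lower, and the ATP synthase 0 to 2 higher and 1 to 3 lower.

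The share of Atp5g3 differed by 1.40 points per kilobase of principal transcript (adjusted p = 0.0786). Each of the 8 called shares lost its call without control replicate 2, 5, 6 or 7 or MAARS gapmeR replicate 15, and Cox6a2 also without MAARS gapmeR replicate 13, with adjusted exact permutation p from 0.0524 to 0.157, while without MAARS gapmeR replicate 9 or 11 all 8 kept it. The differences with 1 library left out lay between -1.66 and -1.41 points for Atp5g1, 1.53 and 2.04 for Atp5g3, 0.15 and 0.184 for Cox4i2, -1.17 and -0.715 for Cox6a2, 0.0687 and 0.0939 for Cox6b2, 1.149 and 1.54 for Cox7a1, -8.78 and -6.41 for Cox7a2, and 5.22 and 7.24 for Cox7a2l. For 64 of the 90 genes named the call was the same in each alternative. Of 1530 values, 47 lost and 48 gained a call, none of the called ones changed sign, and 23 uncalled ones did. The cause of these changes was not tested.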
